A study of Homo sapiens with 6 samples.

Results

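Collagens are the secreted or membrane-bound proteins whose chains wind together into a triple helix. The collagen genes described here are the 43 with a single annotated symbol of the form COL, number, A, number, of 19775 genes in all. They had 112 of the 54675 probe sets on the HGU133 Plus 2.0 array. Each gene was read from 1 main probe set, the one with the highest mean signal, and a probe set with the suffix _x_at, which holds probes that match several transcripts, was taken only for genes with no alternative. HT-29, a human colorectal adenocarcinoma cell line, was kept for 72 hours in serum-free medium with 10 µM 5-Aza (5-aza-2′-deoxycytidine, which blocks DNA methyltransferases), and its RNA was hybridized to 3 arrays. The control cells, on another 3 arrays, received the solvent (water and acetate) in place of the drug. Whether the arrays within a group stem from independent cultures is not stated, and the p-values therefore measure an array-to-array spread that may be technical. All cells were of 1 tumor line, at 1 dose and 1 time.

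Collagen chains carry triplets that start with glycine, and the classes differ in what the assembled helix does. Fibrillar collagens form the banded fibrils of connective tissue, fibril-associated collagens sit on the surface of those fibrils, and type IV collagens build the sheet of the basement membrane on which an epithelium rests. In the intestine the fibrillar types are made mostly by fibroblasts of the stroma, while types IV, VII and XVIII belong to the basement membrane zone under the epithelium. HT-29 is grown without stromal cells.

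The background was taken from the probe sets for TrpnX, a bacterial transcript that human cells lack. Their highest signal was between 22.6 and 31.8 on the 5-Aza arrays and between 23.8 and 42 on the control arrays, with the 42 on control replicate 3. The deposited signals had a mean of 500 on each array without the lowest and highest 2% of probe sets. The median signal of all probe sets was between 83.3 and 86.1 on the 5-Aza arrays and between 71.8 and 76.9 on the control arrays. As a measure of RNA quality, the 3′ probe set of ACTB exceeded its 5′ probe set by 0.64 to 0.80 on the log2 scale on the 5-Aza arrays and 0.46 to 0.60 on the control arrays. For GAPDH the values were 0.14 to 0.23 on the 5-Aza arrays and 0.10 to 0.16 on the control arrays. The part of these 3′ to 5′ differences in the collagen values was not tested, and values under other scalings of the arrays are given beside the collagen median. Of 14 colon epithelium markers, 12 were above the TrpnX level on all 6 arrays, beside 61.1% of all genes. EPCAM, CDH1, KRT8 and KRT18 were among the 12, while the intestinal transcription factor CDX1 was above the level on no array and CDX2 on 5 arrays.

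The promoter sequences of 4 genes are shown because their main probe sets were above background on all 6 arrays and the 5-Aza and control arrays did not overlap. COL9A2 and COL4A1 had higher signals on every 5-Aza array, and COL27A1 and COL7A1 had lower signals on every 5-Aza array. Each window runs from 250 bases before to 50 bases after the start site on the strand of the gene (RefSeq, GRCh38.p14), 5′ to 3′. Capitals mark the CpG dinucleotides, the sites at which DNA methyltransferases modify the cytosine, and CG reads the same on both strands. The CpG count over that expected from the C and G content was 0.76 for COL9A2, 1.02 for COL4A1, 0.50 for COL27A1 and 0.60 for COL7A1. Methylation itself was not measured on these arrays.
COL9A2 (chr1:40317237-40317536, minus strand, 29 CpG): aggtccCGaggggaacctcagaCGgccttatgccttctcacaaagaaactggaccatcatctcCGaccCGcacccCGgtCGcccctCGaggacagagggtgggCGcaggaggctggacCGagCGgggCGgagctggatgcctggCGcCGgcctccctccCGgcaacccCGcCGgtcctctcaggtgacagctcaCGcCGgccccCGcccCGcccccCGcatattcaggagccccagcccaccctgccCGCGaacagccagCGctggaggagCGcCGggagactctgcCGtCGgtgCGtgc
COL4A1 (chr13:110307108-110307407, minus strand, 45 CpG): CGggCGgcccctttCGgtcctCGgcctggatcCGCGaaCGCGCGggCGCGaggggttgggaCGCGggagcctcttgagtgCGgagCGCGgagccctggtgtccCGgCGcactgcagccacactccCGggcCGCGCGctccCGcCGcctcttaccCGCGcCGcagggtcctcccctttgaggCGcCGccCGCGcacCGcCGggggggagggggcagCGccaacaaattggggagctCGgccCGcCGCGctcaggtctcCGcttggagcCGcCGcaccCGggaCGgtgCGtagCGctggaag
COL27A1 (chr9:114155287-114155586, plus strand, 16 CpG): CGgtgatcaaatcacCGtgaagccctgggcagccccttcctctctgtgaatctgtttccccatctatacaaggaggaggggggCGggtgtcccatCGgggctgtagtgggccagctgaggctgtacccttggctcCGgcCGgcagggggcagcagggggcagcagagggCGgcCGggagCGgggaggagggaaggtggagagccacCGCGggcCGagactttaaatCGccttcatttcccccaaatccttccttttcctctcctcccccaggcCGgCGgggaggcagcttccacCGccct
COL7A1 (chr3:48595280-48595579, minus strand, 17 CpG): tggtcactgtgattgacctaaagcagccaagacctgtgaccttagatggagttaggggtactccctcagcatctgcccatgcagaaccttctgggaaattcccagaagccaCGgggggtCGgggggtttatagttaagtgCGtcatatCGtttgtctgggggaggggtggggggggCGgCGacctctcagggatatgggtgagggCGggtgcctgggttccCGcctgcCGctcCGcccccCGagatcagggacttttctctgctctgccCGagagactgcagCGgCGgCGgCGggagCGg

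The first question was which collagen signals HT-29 cells gave at all. Of the 43 genes, 12 (27.9%) exceeded the TrpnX level on all 6 arrays, each array set against its own level, beside 61.1% of the 19775 genes. These 12 were the fibrillar COL1A1, COL11A2 and COL27A1, the basement membrane chains COL4A1 and COL4A2, the beaded filament chain COL6A2, COL7A1 of the anchoring fibrils, the fibril-associated COL9A2, COL9A3, COL16A1 and COL20A1, and COL18A1, a basement membrane proteoglycan from whose end endostatin is cut. The same 12 exceeded 42, the highest TrpnX signal of any array, on all 6 arrays. COL5A3, COL9A1 and COL24A1 exceeded the TrpnX level on no array, as did 8.64% of all genes, and their signals were between 0.5 and 23.8. The other 28 genes exceeded it on 1 to 5 arrays.

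By class, 3 of 11 fibrillar, 2 of 6 basement membrane network, 1 of 5 beaded filament, 4 of 10 fibril-associated and 1 of 2 multiplexin collagens were above background on all 6 arrays, as was COL7A1. Among the 3 short-chain network collagens, the 3 transmembrane collagens and the 2 collagens outside these classes, 0 were. These counts cover the 43 genes only, and other collagen genes, such as COL17A1, were not examined. The number of collagen genes above background was 24, 31 and 25 on the 5-Aza arrays and 24, 22 and 14 on the control arrays, where the 14 belonged to control replicate 3 with its high TrpnX signal. The pooled SD between arrays of a group had a median of 0.28 on the log2 scale for the 12 genes above background and of 1.22 for the other 31, so changes of weak collagens were measured less precisely. A gene not above background here is not thereby shown to be silent.

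**Figure D1:**
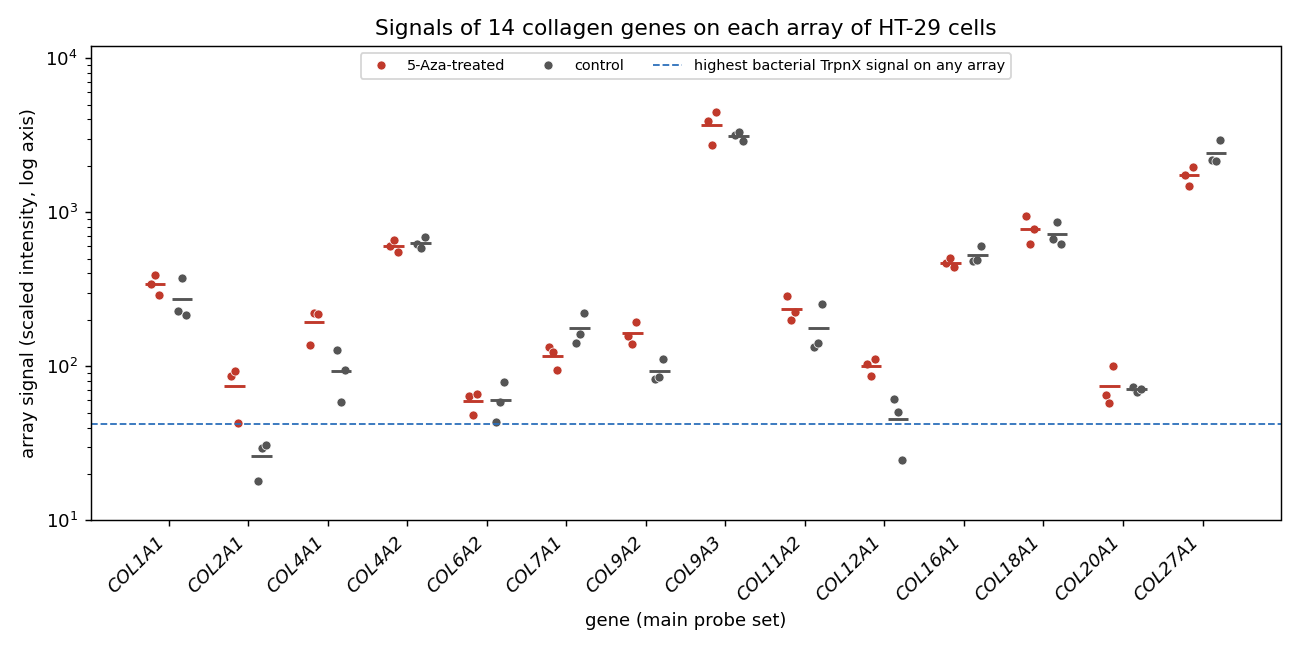
Array signal (scaled intensity, log axis) of 14 collagen genes in HT-29 cells, 1 point per array, with 5-Aza-treated cells in red on the left and control cells in grey on the right of each gene. Bars are group means (n = 3 each), the dashed line is 42, the highest TrpnX signal on any array, and the red and grey points are apart for COL2A1, COL4A1, COL7A1, COL9A2, COL12A1 and COL27A1 and overlap for the other 8 genes.

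The second question was whether 5-Aza changed collagen signals. limma, run over all 54614 probe sets, gave no collagen gene an adjusted p below 0.05 (the smallest was 0.538), and the share among all genes was 0% in either direction. The SAM-type statistic that the methods name also called 0 collagen genes. The methods give a significance level of 0.025 for this comparison, used there together with a ranking by fold change. At an unadjusted limma p under 0.025, without that ranking, 3 collagen genes were higher (6.98%) and 0 lower, beside 3.01% higher and 0.915% lower among all genes. The 3 were COL9A2, COL2A1 and COL12A1. With COL4A1, 4 collagen genes had an unadjusted p under 0.05, all of them higher, beside 7.22% of all genes in either direction.

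Every 5-Aza array was above every control array for the same 4 genes, which is 9.3% of the collagens, beside 9.92% of all genes. Every 5-Aza array was below every control array for COL7A1 and COL27A1, which is 4.65% of the collagens, beside 6.94% of all genes. Among the 12 genes above background on all 6 arrays, 1 was higher at an unadjusted p under 0.025 (8.33%) and 0 lower, beside 1.75% and 0.496% of the genes above background in the whole table. In 2 of the 12 every treated array was above, and in 2 every treated array was below (16.7% each), beside 10.1% and 9.47%. For all collagens, the shares at the unadjusted threshold rest on 3 genes, and the shares of groups that were apart lay near those of all genes. The higher shares among the 12 rest on 1 or 2 genes each.

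The count of 3 turned on single arrays. Leaving out 5-Aza replicate 2 left COL9A2 alone, and leaving out 5-Aza replicate 3 left COL2A1 alone. Without control replicate 2 the only gene past the threshold was COL21A1, a gene at background in the controls. Without 5-Aza replicate 1 the genes past it were COL4A1 and COL22A1, and without control replicate 1 they were COL4A1 and COL12A1. Without control replicate 3 there were 5, the 3 named above with COL11A2 and COL5A3, the last at background on every array. Lower genes numbered 1 in each of 3 such fits, COL15A1 when 5-Aza replicate 2 was left out, COL3A1 when 5-Aza replicate 3 was and COL10A1 when control replicate 3 was, and each of these was above background on 1 or 2 arrays only.

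Log2 fold changes of the 43 genes had a median of 0.17 (-2.23 to 2.20), with 29 positive (67.4%) and 14 negative, beside a median of 0.038 and 54.9% positive for all genes. The 12 genes above background had a median of 0.07 with 8 positive, beside 50.3% positive among all genes above background. After quantile normalization 23 of the 43 were positive (53.5%, beside 49.5% of all genes) with a median of 0.11. After each array was centred on its median, which gave all genes a median of -0.15, 21 were positive (48.8%, beside 34% of all genes) with a median of -0.02. The sign of the collagen median thus depended on the scaling. Both the median and the share of positive genes were above those of all genes under each scaling, a difference that was not tested.

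**Figure D2:**
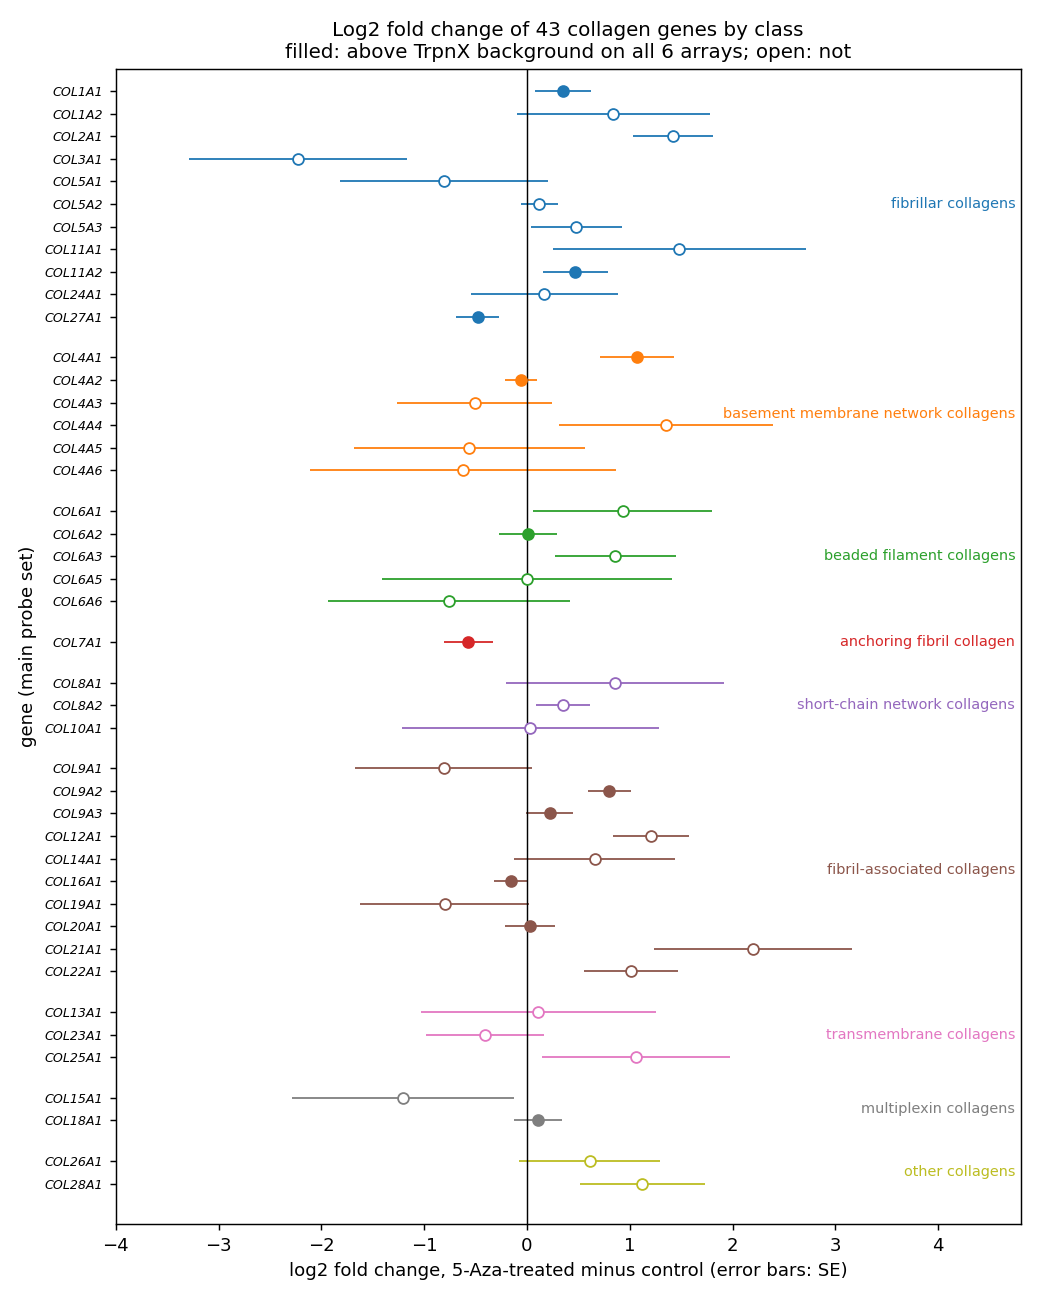
Log2 difference between 5-Aza-treated and control arrays for the main probe sets of 43 collagen genes, grouped by class, with SE as error bars (limma, n = 3 arrays per group). Filled points are the 12 genes above the TrpnX level on all 6 arrays, which lie between -0.57 and 1.07, while the open points reach from -2.23 to 2.20 with longer bars.

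COL9A2 encodes a chain of type IX collagen, which decorates the type II fibrils of cartilage and links them to the surrounding matrix. Its signals were 157.5, 139.0 and 193.3 on the 5-Aza arrays and 83.1, 85.6 and 110.6 on the control arrays. All 3 treated arrays were above all 3 control arrays. It averaged 163 ± 27.6 in treated cells, against 93.1 ± 15.2 in control cells (SD, n = 3 each). The log2 fold change was 0.80 (SE 0.208), a 1.74-fold higher signal (unadjusted p = 0.0103, adjusted p = 0.538, limma). The two-sided exact permutation test gave p = 0.1, and 3 arrays against 3 allow no smaller p. The limma p went above 0.025 in the absence of 5-Aza replicate 1 (0.0304), 5-Aza replicate 3 (0.0345), control replicate 1 (0.0359) or control replicate 2 (0.0324), while the log2 fold change stayed between 0.67 and 0.93. The other probe set of the gene, above background on 3 arrays, had overlapping groups and a log2 fold change of 1.40 (SE 1.27).

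COL9A3 and COL9A1 encode the partner chains of type IX collagen. COL9A3 had 3915.9, 2717.2 and 4446.3 on the 5-Aza arrays and 3149.7, 3325.8 and 2886.7 on the control arrays. Both the lowest and the highest signals were on treated arrays, so the groups overlapped (log2 fold change 0.22, SE 0.23). COL9A1 stayed between 1.4 and 23.8 and was at background on every array. Within an array, the log2 signal of COL9A2 minus that of COL9A3 was -4.63, -4.28 and -4.52 in treated cells and -5.23, -5.26 and -4.69 in control cells. The groups were apart in this ratio by 0.59, with p = 0.1 in the exact permutation test, which cannot go lower with 3 arrays against 3. The ratio was not among the planned results. It draws on the same COL9A2 signals, which were already apart, and so adds no separate support.

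COL2A1 encodes the chain of type II collagen, the main fibril of cartilage. Its main probe set had 86.5, 92.6 and 42.5 on the 5-Aza arrays, each above the TrpnX level, and 18.0, 29.5 and 30.9 on the control arrays, all at background. Treated signals were higher on every array. Since the control group has only an upper bound, the observed ratio was at least 2.17-fold, with each control array set at its TrpnX level. This value does not count the spread between arrays. The fitted log2 fold change was 1.42 (SE 0.39, unadjusted p = 0.013, adjusted p = 0.565, limma), and it was 1.06 with a constant of 16 before the log2 instead of 1. The p went above 0.025 in the absence of 5-Aza replicate 1 (0.0442), 5-Aza replicate 2 (0.0429), control replicate 1 (0.0401) or control replicate 2 (0.0285). The second probe set of the gene had signals between 2.2 and 4.6, at background on all 6 arrays.

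COL12A1 encodes type XII collagen, which lies along type I fibrils in tendon and skin. It had 103.2, 86.8 and 111.0 on the 5-Aza arrays and 61.6, 50.3 and 24.8 on the control arrays. Every treated signal was higher, and control replicate 3 was at background. The log2 fold change was 1.21 (SE 0.369, unadjusted p = 0.0198, adjusted p = 0.604, limma). The p was 0.055, 0.0376 and 0.0601 when 5-Aza replicate 1, 2 or 3 was left out and 0.0356 when control replicate 2 was. Quantile normalization gave 0.0432 and median centring 0.042. Of its 5 probe sets only the main one was above background on more than 2 arrays. The log2 fold changes of the other 4 were 1.64, -0.62, 0.85 and -0.29, and the mean of all 5 was 0.56.

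Type IV collagen is the scaffold of the basement membrane, and its 6 genes lie in 3 pairs whose members start close together and are read in opposite directions. COL4A1 and COL4A2, whose products form the common type IV trimer, start 127 bases apart on chromosome 13, so that their promoter windows share 226 bases and hold 45 CpG each. COL4A1 had 137.5, 222.5 and 218.6 on the 5-Aza arrays and 128.0, 58.7 and 94.4 on the control arrays. The groups did not overlap, although 5-Aza replicate 1 was close to control replicate 1. The log2 fold change was 1.07 (SE 0.364, unadjusted p = 0.0295, adjusted p = 0.638, limma), a 2.1-fold higher signal, and it was 0.77 when control replicate 2 was left out. In limma it passed the unadjusted threshold with all 6 arrays under 4 alternatives, trend and robust variance (0.00767), only probe sets above the median signal (0.0136), a constant of 16 (0.0198) and the mean of all probe sets (0.0219). It also passed when 5-Aza replicate 1 (0.0237) or control replicate 1 (0.0173) was left out. In limma it did not pass after quantile normalization (0.0433), after median centring (0.0541) or with the replicate block (0.0808). Nor did it pass in limma without 5-Aza replicate 2 (0.0869), 5-Aza replicate 3 (0.086), control replicate 2 (0.0647) or control replicate 3 (0.0636). The SAM-type statistic did not bring COL4A1 past the threshold either. A second probe set of COL4A1, at background on all 6 arrays, had a log2 fold change of 0.80.

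COL4A2 had 607.1, 660.2 and 553.8 on the 5-Aza arrays and 624.8, 585.1 and 686.4 on the control arrays. The groups overlapped (log2 fold change -0.06, SE 0.154), and the other probe set of the gene, also above background, had -0.12. The log2 signal of COL4A1 minus that of COL4A2 was -2.13, -1.56 and -1.34 in treated cells and -2.28, -3.30 and -2.85 in control cells. This ratio was higher by 1.13 on the treated arrays and the groups did not overlap, at the floor of the exact permutation test (two-sided p = 0.1). The ratio was not among the planned results. It draws on the same COL4A1 signals, which were already apart, and so adds no separate support.

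The other type IV pairs stayed near background. COL4A4 and COL4A3, which encode chains of kidney and lung basement membranes, start 419 bases apart on chromosome 2. COL4A4 had 13.5, 89.1 and 70.4 in treated cells and 58.1, 7.9 and 9.7 in control cells, and COL4A3 ranged from 6.3 to 52.3 over all 6 arrays. Each was above the TrpnX level on 3 arrays, with overlapping groups. COL4A6 and COL4A5, which start 380 bases apart on the X chromosome, ranged from 2.0 to 50.5 and from 3.0 to 45.7, and were above background on 2 arrays and on 1.

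**Figure D3:**
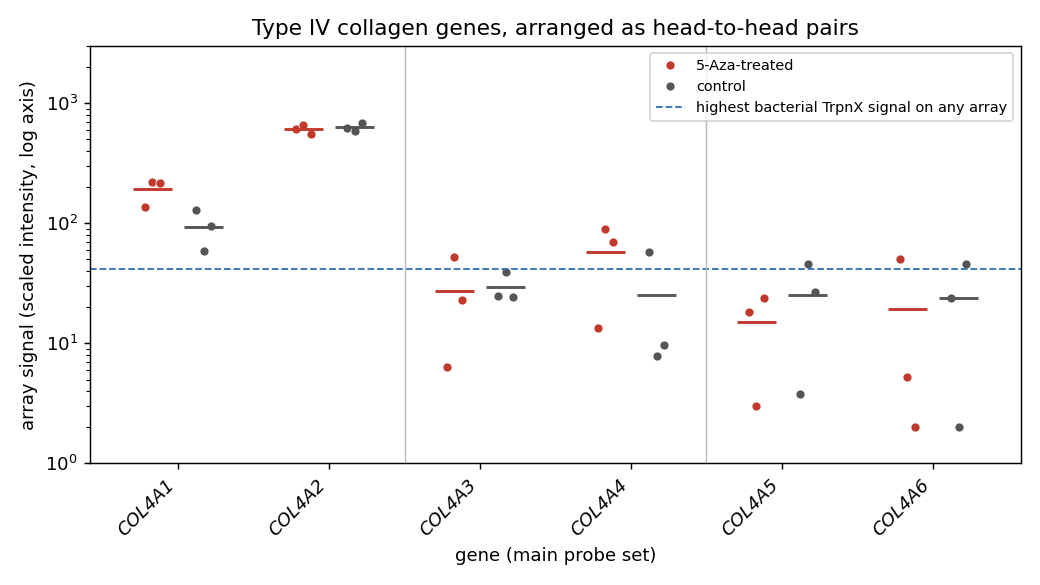
Array signal (scaled intensity, log axis) of the 6 type IV collagen genes, set side by side as the pairs that share a promoter region, with 5-Aza-treated arrays in red on the left and control arrays in grey on the right (n = 3 each). Bars are group means, the dashed line is 42, the highest TrpnX signal, and COL4A1 is higher in treated cells without overlap, COL4A2 overlaps, and most points of the other 4 genes lie under the line.

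COL7A1 forms the anchoring fibrils that tie an epithelial basement membrane to the stroma. It had 132.7, 122.8 and 95.2 on the 5-Aza arrays and 142.0, 163.1 and 222.2 on the control arrays. Every treated signal was lower, by a small gap between 132.7 in treated and 142.0 in control cells. The log2 fold change was -0.57 (SE 0.242, unadjusted p = 0.0608, adjusted p = 0.713, limma). It was -0.39 without control replicate 3, which held the highest signal, and -0.76 (unadjusted p = 0.0193, limma) after median centring. The second probe set, above background on 4 arrays, had -1.15 (SE 0.647).

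COL27A1 encodes a fibrillar chain found in cartilage. Its main probe set had 1743.6, 1488.4 and 1965.5 on the 5-Aza arrays and 2182.5, 2143.5 and 2934.3 on the control arrays. All treated signals were lower. The log2 fold change was -0.48 (SE 0.206, unadjusted p = 0.0655, adjusted p = 0.719, limma). A second probe set had 1613.9, 1522.5 and 1374.5 in treated cells and 1909.2, 1678.0 and 2444.8 in control cells. Its groups were apart as well (log2 fold change -0.40). Another had 788.1, 814.0 and 913.7 in treated cells and 1035.2, 888.5 and 1317.0 in control cells, with 5-Aza replicate 3 above control replicate 2 (log2 fold change -0.35). The remaining probe sets, above background on 5 and on 2 arrays, had 0.11 and 1.58, and the mean over all 5 was 0.09. The unadjusted p of the main probe set was 0.00604 with trend and robust variance and 0.0164 after median centring (limma), and its log2 fold change was between -0.57 and -0.33 when 1 array was left out.

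The other genes above background on all 6 arrays had overlapping groups. COL1A1, a chain of the type I fibril, had 340.8, 389.9 and 288.4 in treated cells and 227.7, 374.6 and 215.8 in control cells (log2 fold change 0.35, SE 0.275). Its 4 probe sets above background on all 6 arrays did not run the same way, with 0.35, 0.13, -0.35 and -0.10, and the mean of all 5 was -0.20. COL1A2, the partner chain of type I collagen, was above background on 3 arrays, with 90.0, 16.9 and 67.4 in treated cells and 21.0, 75.3 and 10.5 in control cells. High and low signals of COL1A2 occurred in both groups.

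COL11A2 encodes a chain of type XI collagen, which helps type II fibrils to form. It had 284.4, 200.0 and 225.7 in treated cells and 132.9, 141.2 and 254.2 in control cells (log2 fold change 0.47, SE 0.314). Control replicate 3 alone reached the treated range, and when it was left out the value was 0.77 (unadjusted p = 0.022, limma). COL11A1, its partner, had signals of 1.2 to 33.3 and was above background on 1 array.

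COL16A1, a fibril-associated chain, had 469.7, 501.5 and 437.8 in treated cells and 485.6, 491.3 and 600.9 in control cells (log2 fold change -0.16, SE 0.162). COL18A1 had 943.2, 626.1 and 772.2 in treated cells and 670.5, 866.7 and 618.3 in control cells (log2 fold change 0.11, SE 0.233), and its other probe set gave 0.16 (SE 0.266). For both genes the difference was within the spread between arrays. COL6A2, a chain of the beaded filaments, had 64.0, 48.4 and 66.3 in treated cells and 43.2, 59.0 and 79.2 in control cells (log2 fold change 0.01, SE 0.278). Its sign turned with the scaling, to -0.20 after quantile normalization and -0.18 after median centring. COL6A1, a partner chain with 8 probe sets, was above background on 5 arrays with its main probe set (log2 fold change 0.93, SE 0.867), and COL6A3, the remaining chain of the common type VI filament, ranged from 5.3 to 33.4.

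COL20A1, a fibril-associated collagen, had 65.4, 57.8 and 100.8 in treated cells and 73.7, 68.0 and 71.1 in control cells with its main probe set (log2 fold change 0.03, SE 0.245, and -0.15 after median centring). Its other probe set read 33.6, 45.9 and 60.1 on the 5-Aza arrays, each above background, and 2.5, 6.2 and 7.3 on the control arrays, all at background. The probe sets of COL20A1 thus gave different results. The second one was named after its values were seen. With each control array set at its TrpnX level, its observed ratio was at least 1.4-fold, not counting the spread between arrays. Its fitted log2 fold change of 2.96 (adjusted p = 0.255, limma) rests on control signals under background. Over all 112 collagen probe sets, 5 were higher at an unadjusted p under 0.025 and 0 lower, beside 2.97% and 1.05% of all probe sets. They were the main probe sets of the 3 genes named above, this one, and one of COL6A1, also named after its values were seen, which was above background on 1 array. In 8 probe sets every treated array was above and in 4 every treated array was below, beside 9.29% and 5.22% of all probe sets.

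**Figure D4:**
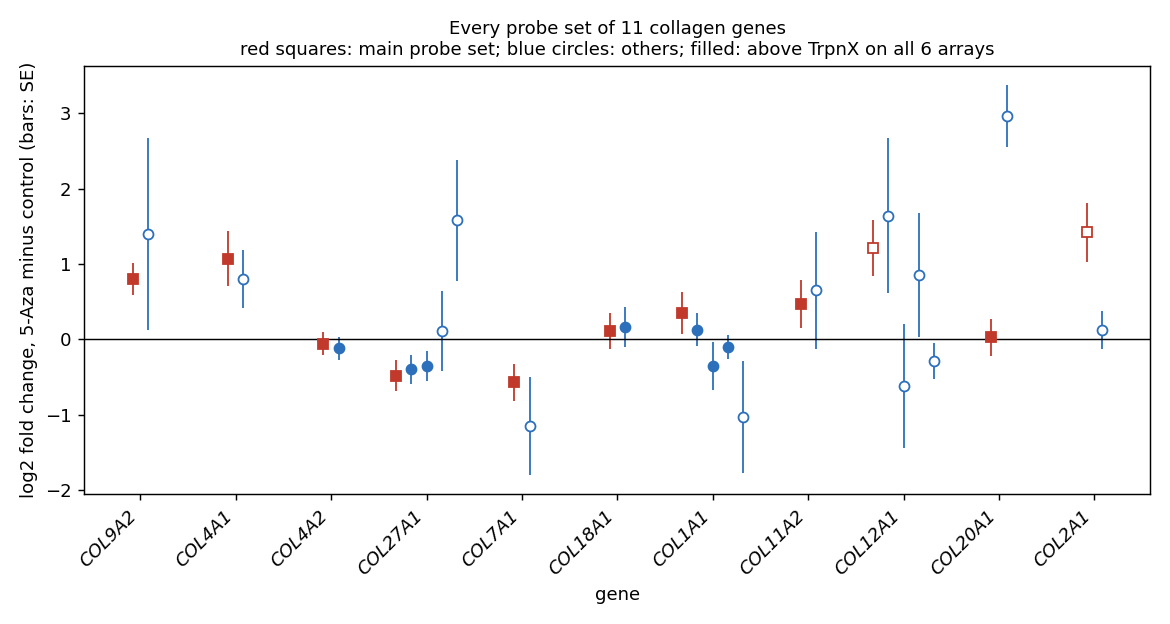
Log2 difference between 5-Aza-treated and control arrays (SE as error bars, n = 3 arrays per group) for every probe set of 11 collagen genes. Red squares are main probe sets, blue circles are the others, and filled symbols were above the TrpnX level on all 6 arrays; the 3 filled probe sets of COL27A1 lie under 0, the 4 filled ones of COL1A1 lie on both sides of it, and those of COL20A1 are far apart.

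Among the genes not called, fitted changes were large for several near background. They were 1.48 for COL11A1, 1.35 for COL4A4, 1.12 for COL28A1, 1.06 for COL25A1 and -1.21 for COL15A1 on the log2 scale, with SEs of 0.608 to 1.23. COL21A1, a fibril-associated collagen of vessel walls, had 33.2, 34.7 and 38.4 on the 5-Aza arrays, each just above the TrpnX level, and 1.6, 33.4 and 4.6 on the control arrays, none above it. Control replicate 2 was among the treated signals. Its log2 fold change of 2.20 (SE 0.963, adjusted p = 0.721, limma) rested on control signals under background. With each control array set at its TrpnX level, the observed ratio was at least 1.1-fold, not counting the spread between arrays. COL22A1, a collagen of tissue junctions such as that of muscle and tendon, had 45.6, 110.2 and 111.3 in treated cells and 31.8, 60.3 and 34.3 in control cells (log2 fold change 1.01, SE 0.457). Here 5-Aza replicate 1 was within the control range. COL3A1, a fibrillar chain of vessel and gut walls, had 3.4, 2.1 and 40.6 in treated cells and 62.0, 31.2 and 27.8 in control cells (log2 fold change -2.23, SE 1.06). One treated array was among the controls, and only 2 of the 6 signals were above background.

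The members not yet described were near background and passed no threshold. COL5A1 and COL5A2, chains of the type V collagen found inside type I fibrils, ranged from 5.9 to 70.1 and from 36.4 to 48.6, and were above background on 2 and on 5 arrays. Of the short-chain network collagens, COL8A2, a chain of the sheet under the corneal endothelium, had 45.2, 48.7 and 77.2 in treated cells and 42.4, 50.1 and 38.2 in control cells. Its partner COL8A1 and the growth plate collagen COL10A1 ranged from 2.0 to 36.0 and from 1.0 to 41.5. None of these stood apart between the groups. COL14A1 and COL19A1, both fibril-associated, ranged from 6.3 to 41.1 and from 4.2 to 48.6. Among the transmembrane collagens, COL13A1 had 1.5 to 24.3, COL23A1 had 14.4 to 64.0 and COL25A1 had 2.7 to 43.5. COL13A1 also had an _x_at probe set above background on all 6 arrays, with a log2 fold change of 0.24, which could read other transcripts. The beaded filament chains COL6A5 and COL6A6 ranged from 1.0 to 38.3 and from 1.3 to 38.7, the multiplexin COL15A1 from 1.8 to 39.7, and COL26A1 and COL28A1 from 9.1 to 50.8 and from 4.1 to 36.2.

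Promoter windows were found for 31 of the 43 genes, and for 8 of these there were several, of which the one with the most CpG was counted. The other 12 genes were COL1A1, COL1A2, COL2A1, COL3A1, COL5A2, COL6A1, COL6A5, COL8A1, COL9A3, COL14A1, COL20A1 and COL22A1. Windows of the 9 genes above background on all 6 arrays held 16 to 46 CpG with a median of 36, and those of the 22 others held 1 to 45 with a median of 20. Among all measured genes the same split gave medians of 28 and 11. At least 1 CpG was present in 100% of the collagen windows and in 96% of all windows of this length. COL9A2 and COL4A1, with higher treated signals, held 29 and 45, and COL7A1 and COL27A1, with lower treated signals, held 17 and 16. COL4A2, with 45, and COL18A1, with 46, had overlapping groups, so no order of change by CpG count is read from these genes.

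**Figure D5:**
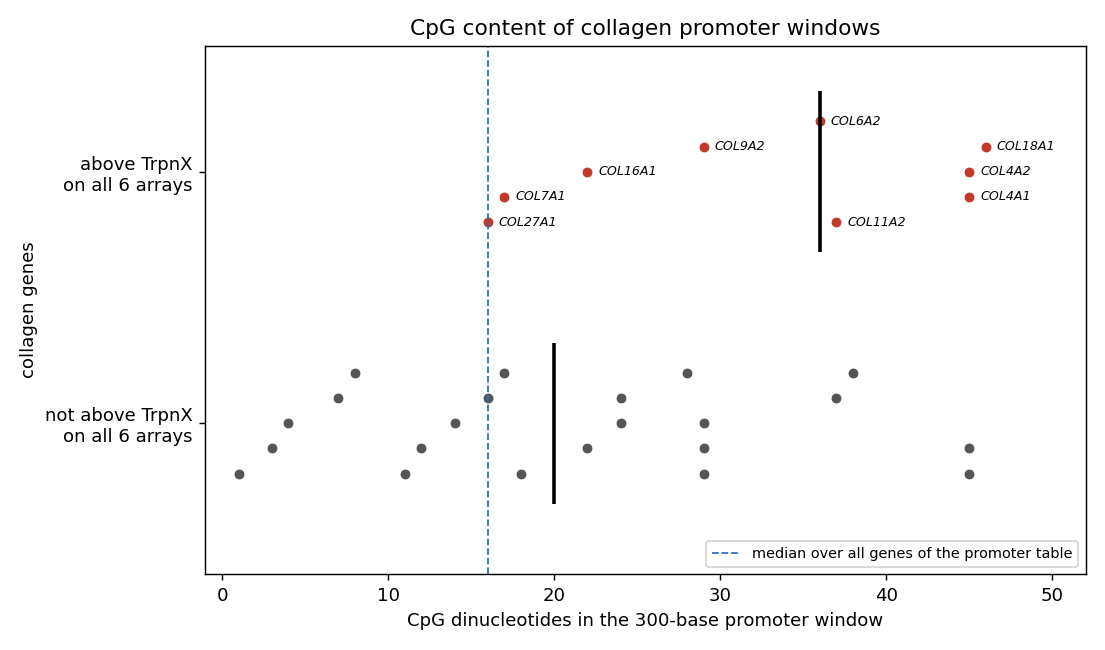
Number of CpG dinucleotides in the 300-base promoter window of 31 collagen genes, 1 point per gene, with the 9 genes above the TrpnX level on all 6 arrays in the upper row and the 22 others in the lower row. Thick bars are medians (36 and 20), the dashed line is the median over all genes of the promoter table (16), and vertical position within a row carries no value.

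The genes that process, cut and bind collagen were compared next. No gene of these lists, or of the cell type marker lists that follow, had an adjusted p under 0.05 (limma). In a list of 29 measured genes for collagen processing and crosslinking, 21 were above background on all 6 arrays, beside 61.1% of all genes. At an unadjusted p under 0.025, 1 was higher and 0 were lower, beside 3.01% and 0.915% of all genes, and the median log2 fold change was 0.08, beside 0.038. The gene past the threshold was LOXL4, a lysyl oxidase that crosslinks collagen, with 398.2, 387.0 and 336.2 in treated cells and 240.5, 261.1 and 285.0 in control cells. Its treated signals were all higher (log2 fold change 0.51, SE 0.156, adjusted p = 0.604, limma). In this list 1 gene was above and 1 was below without overlap, beside 9.92% and 6.94% of all genes. Of 12 genes for collagen-cutting proteases and their inhibitors, 1 was higher and 0 were lower, beside the same 3.01% and 0.915%, and the median log2 fold change was 0.07. It was MMP1, the interstitial collagenase, with 72.6, 70.9 and 67.1 in treated cells and 55.9, 35.1 and 33.6 in control cells. The groups were apart and 1 control array was at background (log2 fold change 0.78, SE 0.238, adjusted p = 0.604, limma). MMP1 was 1 of 12 with every treated array above, beside 9.92% of all genes.

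Of 9 measured collagen receptors 0 passed, beside 3.01% of all genes higher and 0.915% lower, and the median log2 fold change was 0.12. The integrin chain ITGA2 averaged 2168 ± 233 in treated cells, against 2073 ± 153 in control cells (SD, n = 3 each), within the spread. Its partner ITGB1 averaged 18202 ± 352 in treated cells, against 16096 ± 1135 in control cells (SD, n = 3 each). Every treated array of ITGB1 was above every control array (log2 fold change 0.18, SE 0.139). ITGA10 (0.52, SE 0.208) was also apart, so this held for 2 of 9 receptors, beside 9.92% of all genes. Of 18 other components of the basement membrane and its attachment, 2 were higher and 0 were lower, beside 3.01% and 0.915% of all genes, and the median was 0.04. FN1, the matrix protein fibronectin, had 391.8, 394.1 and 482.4 in treated cells and 208.3, 113.7 and 214.0 in control cells. Its treated signals were all higher (log2 fold change 1.29, SE 0.298, adjusted p = 0.485, limma). ITGA6, a laminin receptor chain, averaged 5149 ± 132 in treated cells, against 3512 ± 513 in control cells (SD, n = 3 each). Its log2 fold change was 0.56 (SE 0.167, adjusted p = 0.596, limma). With LAMC1 (log2 fold change 0.43, SE 0.155), 3 of the 18 had every treated array above every control array, beside 9.92% of all genes.

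Markers of stromal cells, the usual source of fibrillar collagen, were measured in the same arrays, and their part in the collagen values was not tested. Of 13 fibroblast markers 3 were above the TrpnX level on all 6 arrays (FAP, S100A4 and VIM) and 0 passed an unadjusted p under 0.025. Among all genes 61.1% were above it on all 6 arrays, and 3.01% were higher and 0.915% lower at that p. The same shares stand beside the other marker lists. The summed signal of the 13 fibroblast markers was 2761 to 3256 on treated arrays and 1837 to 2871 on control arrays. Most of it was S100A4 (2203 ± 264 in treated cells, against 1631 ± 663 in control cells, SD, n = 3 each). DCN, LUM, PDGFRA, PDGFRB, POSTN and SPARC were above background on 1 to 4 arrays, PDPN on 3, THY1 and FBLN1 on 5 and TWIST1 on none. Of 9 smooth muscle and pericyte markers 5 were above background on all arrays and 0 passed, with sums of 2576 to 4823 on treated arrays and 2988 to 3448 on control arrays. MCAM was higher on every treated array, with 101 ± 8.89 in treated cells, against 44.3 ± 30.6 in control cells (SD, n = 3 each), and did not pass. CSPG4 averaged 2857 ± 1115 in treated cells, against 2233 ± 275 in control cells (SD, n = 3 each). TAGLN averaged 314 ± 36.8 in treated cells, against 499 ± 192 in control cells, with every treated array lower (SD, n = 3 each). Every treated array was also lower for RGS5. In this list 1 gene was above and 2 were below without overlap, beside 9.92% and 6.94% of all genes.

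Of 9 endothelial markers 2 were above background on all arrays, PECAM1 (178 ± 28.3 in treated cells, against 132 ± 25 in control cells) and ENG (635 ± 171 in treated cells, against 715 ± 91.3 in control cells; SD, n = 3 each), with list sums of 823 to 1243 on treated arrays and 894 to 1141 on control arrays. VWF was higher at the unadjusted threshold, 1 gene of 9, beside 3.01% of all genes. It had 55.2 ± 26.6 in treated cells, against 13.1 ± 6.56 in control cells (SD, n = 3 each), and was at background on 4 arrays. Its log2 fold change was 1.95 (SE 0.554, adjusted p = 0.579, limma). KDR and PLVAP were above background on 4 arrays, and CDH5 and EMCN, which define endothelium, on none. Of 7 measured leukocyte markers 2 (ITGAM and LYZ) were above background on all 6 arrays, beside 61.1% of all genes. None passed, beside 3.01% of all genes higher and 0.915% lower. The sums of the leukocyte list were 28710 to 32032 on treated arrays and 20108 to 30107 on control arrays, and nearly all of it was LYZ. PTPRC and CD14, which define leukocytes and monocytes, were above background on 1 array each, CSF1R on 5, and CD3E and MS4A1 on 4. CSF1R, CD3E and MS4A1 had log2 fold changes of 1.42 (SE 0.885), 1.34 (SE 0.648) and 1.71 (SE 1.13). Those of PTPRC and CD14 were -0.05 (SE 0.893) and -0.21 (SE 1.22). In the list 5 of 7 genes were positive, beside 54.9% of all genes, and the median was 0.82. In the colon epithelium list the log2 fold change was positive for 5 of 14 genes, beside 54.9% of all genes, and had a median of -0.05. CEACAM5 was higher at the unadjusted threshold (836 ± 97.5 in treated cells, against 427 ± 37 in control cells, SD, n = 3 each). Its log2 fold change was 0.96 (SE 0.166, adjusted p = 0.319, limma). CEACAM5 was 1 gene of 14, beside 3.01% of all genes. KRT20 had every treated array above every control array (log2 fold change 0.35) and did not pass. KRT19 and LGALS4 had every treated array below every control array (log2 fold changes -0.35 and -0.26) and did not pass. With CEACAM5, 2 of 14 genes were above and 2 were below without overlap, beside 9.92% and 6.94% of all genes. The sums of that list were 137986 to 150798 on treated arrays and 136326 to 168949 on control arrays.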

How the data were processed

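HT-29 RNA was hybridized to 6 HGU133 Plus 2.0 arrays, 3 of 5-Aza-treated and 3 of control cells, grouped by the source names in the labels. The deposited values are linear intensity values, 1 per probe set and array, which the authors made with the affy package (version, background correction and summary method not given in the sources used here). Their trimmed mean was 500 on every array. The number of arrays limits the precision.

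Each signal had 1 added and log2 was taken. limma 3.58.1 in R 4.3.3 was fitted on 54614 probe sets (61 control probe sets left out, the Alu control kept) with the group as its only term, with Benjamini-Hochberg adjustment over all of them. The fit was tested on simulated data. Single values also had an exact permutation test of the 6 arrays. In the annotation 41097 probe sets have 1 symbol, 1801 several and 11777 none.

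The collagen genes and gene lists were chosen with earlier results of these data known. Full values were given for every collagen gene above the TrpnX level on all 6 arrays, and for every gene with an unadjusted p under 0.025 or groups that did not overlap and at least 1 array above it. In each other list, up to 4 genes past that p and above the TrpnX level on at least 1 array were named, or else the 2 with the highest mean signal. Of 170 genes in the lists, 7 were not analysed here. Alternatives were the SAM-type statistic of the methods, trend and robust variance, quantile normalization, median centring, a filter on low signals, 16 added in place of 1, control probe sets included, other choices of probe set, other background levels, a replicate block and leaving out each array. Promoter windows came from RefSeq (GRCh38.p14) and were matched by Entrez gene ID.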

Additional observations from a re-analysis of the deposited data

How the results depend on the processing

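No setting brought a collagen gene past an adjusted p under 0.05 (0 under all 17 alternatives, with 43 genes tested except for the 10 left when only probe sets above the median signal were kept). The 3 genes higher at an unadjusted p under 0.025 became 1 with the replicate block (COL9A2) and ranged from 1 to 5 without 1 array. The labels do not say whether arrays of the same number belong together. The deviations of such arrays from their group means had correlations of -0.0117, 0.0021 and 0.00965. Arrays of unlike number were not compared, so these values do not settle whether the arrays were paired. The 0 lower became 1 with trend and robust variance, 2 after median centring (COL7A1 and COL27A1) and 0 to 1 without 1 array. Median centring shifted the whole array. Over all probe sets it gave 1451 lower at that threshold, beside 575 in the main fit, and 926 higher, beside 1621. The 4 genes with every treated array above every control array became 2 when only probe sets above the median signal were kept, and 5 to 10 without 1 array, where separation is easier with fewer arrays. The 2 with every treated array below became 4 after median centring, 0 with the mean of all probe sets and 2 to 6 without 1 array. Median centring left 34% of all genes with a positive change, beside 54.9% in the main fit. The median log2 fold change of 0.17 became -0.02 after median centring and 0.21 to 0.42 without 1 array. The 12 genes above background numbered 12 to 18 under 10 alternatives.

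Directions turned for genes whose change was near 0 or whose probe sets disagree. With the mean of all probe sets COL1A1 had -0.20, COL6A2 -0.27 and COL27A1 0.09. That setting also called 3 genes higher, but COL9A2 (p 0.168) and COL12A1 (p 0.177) gave way to COL4A1 (0.0219) and COL20A1 (0.00192), in limma. After quantile normalization COL6A2 had -0.20 and COL20A1 -0.16, and after median centring COL6A2 had -0.18, COL18A1 -0.07 and COL20A1 -0.15. Without 1 array COL4A2 ranged from -0.12 to 0.01, COL6A2 from -0.21 to 0.22, COL18A1 from -0.03 to 0.26 and COL20A1 from -0.20 to 0.19. Apart from the values for the mean of all probe sets, the cause was not tested. COL2A1, COL4A1, COL7A1, COL9A2 and COL12A1 kept their direction under every alternative run. So did COL9A3, COL11A2 and COL16A1, whose groups overlapped. All these fits use the same arrays and are not separate support.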
